A study of Mus musculus with 14 samples.

Results

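Matrix metalloproteinases (MMPs) and their tissue inhibitors (TIMPs) were followed through 10 RNA libraries of mouse embryo fibroblasts. The set was chosen by gene symbol and holds 10 of the 20207 genes in the files: Mmp2, Mmp3, Mmp11, Mmp13, Mmp14, Mmp15, Mmp19, Timp1, Timp2 and Timp3. The cells came from strain 129/Sv and were either p53-null (p53-/-) or wild type. Each genotype was given doxorubicin, a topoisomerase poison that breaks DNA, at 0.2 µg/ml for 6 h, or was left untreated. There were 2 libraries of doxorubicin-treated p53-null cells, 2 of untreated p53-null cells, 3 of doxorubicin-treated wild-type cells and 3 of untreated wild-type cells. The labels do not say which allele makes the cells p53-null, nor whether replicates came from separate embryos or cultures. The p-values therefore reflect the spread of these libraries only. Y-linked reads, given below, differed within some groups, so the replicates of those groups were not all repeats of the same cells. The rest of the spread may be technical.

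MMPs are zinc endopeptidases that cut collagens, gelatin, fibronectin, proteoglycans and many cell-surface proteins. Most are secreted as inactive proenzymes, while the membrane types are cleaved by furin-like convertases inside the cell and act at the cell surface. TIMPs bind the active site and block it, and TIMP2 also helps membrane-bound MMP14 to activate proMMP2. Fibroblasts are a main source of MMP2, MMP3, MMP14 and the TIMPs, and p53 is the transcription factor that DNA damage stabilises.

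Promoters are shown for the 2 members called between genotypes in both conditions, Mmp15 and Timp1, and for Mmp3 and Mmp13, whose promoters are known for an AP-1 site. Each line gives the 250 bases before the start of the gene, 5′ to 3′, from RefSeq on build GRCm38.p6. Capitals mark matches, on either strand, to the AP-1 motif TGAGTCA, the GC box GGGCGG, the TATA motif TATAAA or a p53 half-site. All 4 lie on the plus strand: Mmp15 at chr8:95352046-95352295, Timp1 at chrX:20869916-20870165, Mmp3 at chr9:7445572-7445821 and Mmp13 at chr9:7272264-7272513.
Mmp15: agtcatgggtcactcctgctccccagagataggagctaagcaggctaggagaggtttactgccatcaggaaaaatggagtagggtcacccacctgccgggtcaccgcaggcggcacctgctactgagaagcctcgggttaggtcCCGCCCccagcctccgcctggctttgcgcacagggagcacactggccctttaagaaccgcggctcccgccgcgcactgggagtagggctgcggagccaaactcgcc
Timp1: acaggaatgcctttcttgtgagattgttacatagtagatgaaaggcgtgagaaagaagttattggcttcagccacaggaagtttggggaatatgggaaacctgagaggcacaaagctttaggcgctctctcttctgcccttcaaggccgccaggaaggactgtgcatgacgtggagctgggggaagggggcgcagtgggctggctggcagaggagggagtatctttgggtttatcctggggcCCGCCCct
Mmp3: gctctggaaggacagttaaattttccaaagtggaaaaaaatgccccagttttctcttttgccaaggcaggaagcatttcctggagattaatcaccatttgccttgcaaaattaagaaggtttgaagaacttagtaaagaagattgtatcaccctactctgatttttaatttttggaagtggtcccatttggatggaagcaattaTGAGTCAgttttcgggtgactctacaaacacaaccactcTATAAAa
Mmp13: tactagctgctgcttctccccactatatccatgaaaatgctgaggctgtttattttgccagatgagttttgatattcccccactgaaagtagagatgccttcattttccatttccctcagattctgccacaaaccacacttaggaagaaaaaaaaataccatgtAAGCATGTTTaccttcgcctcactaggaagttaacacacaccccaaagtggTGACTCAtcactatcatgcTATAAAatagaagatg

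Promoters were found for 8 of the 10 genes. Mmp15 held 1 GC box, 106 bases before the start, and Timp1 held 1 GC box, 8 bases before it. Mmp3 held the AP-1 motif 46 bases before its start and Mmp13 held it 35 bases before, on the minus strand. Both also had the TATA motif, and Mmp13 had a p53 half-site 86 bases before its start. Mmp11 and Mmp14 had 2 GC boxes each, and Timp2 and Timp3 had 1 each. Of 32851 promoters of the same length, 32.7% held the GC box, 12.4% the TATA motif, 7.13% the p53 half-site and 4.46% the AP-1 motif. No matches of different motifs overlapped in the 4 promoters printed. These matches describe the letters of the window only. The p53 binding sites of the series are on build mm9 and were not tied to genes here.

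The unit of level is CPM, a gene's reads relative to a fixed library size after scaling between libraries. Reads come from the 3′ ends of poly(A) RNA, so levels are compared between libraries and not between genes. p53-null libraries held 18099504 to 25970157 reads and wild-type libraries 9767889 to 11770448, so every p53-null library was the deeper. Cdkn1a, the p53 target that encodes the cell cycle inhibitor p21, averaged 30.4 CPM in untreated p53-null cells and 686 CPM in untreated wild-type cells. Trp53 itself averaged 71.9 CPM in untreated p53-null cells and 23.2 CPM in untreated wild-type cells, and 3′ reads do not check a deletion elsewhere in the gene. The summed level of 12 fibroblast markers was 6122 to 7483 CPM in p53-null libraries and 7937 to 13020 CPM in wild-type libraries. This sum rests mainly on the most abundant markers. Between untreated genotypes 3 of the 12 were called higher and 1 lower in p53-null cells, where 33.2% of all genes were called. Their median log2 fold was 0.089 there, against 0.087 over all genes. In treated cells none was higher and 1 was lower, with a median of -0.285, against 0.03 over all genes. Of 16 macrophage markers, 15 were in the files, and their sum was 88.9 to 129.6 CPM in p53-null libraries and 47.4 to 540 CPM in wild-type libraries. Endothelial markers summed to at most 4.40 CPM and epithelial markers to at most 37.3 CPM in any library. Skeletal muscle and chondrocyte markers summed to 503 to 833 CPM in p53-null libraries and 160 to 436 CPM in wild-type libraries. Y-linked reads differed within 3 of the 4 groups. They numbered 136 and 15 for treated p53-null cells, 207 and 216 for untreated p53-null cells, 147, 7 and 9 for treated wild-type cells, and 166, 0 and 2 for untreated wild-type cells, in the order of the library numbers. In wild type library 1 stood apart in both conditions, while the p53-null libraries numbered 2 did not match each other, with 399 Xist reads in the treated and 15 in the untreated one. Member calls of the main fit are therefore also given without both p53-null libraries numbered 2, and those not said to be lost were kept. Calls made with the replicate number as a block were not refitted that way. Leaving out a p53-null library keeps 1 library in a p53-null group. Fewer of all genes were then called between genotypes and for the difference of doxorubicin responses. Calls lost there are therefore not particular to the genes named.

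**Figure D1:**
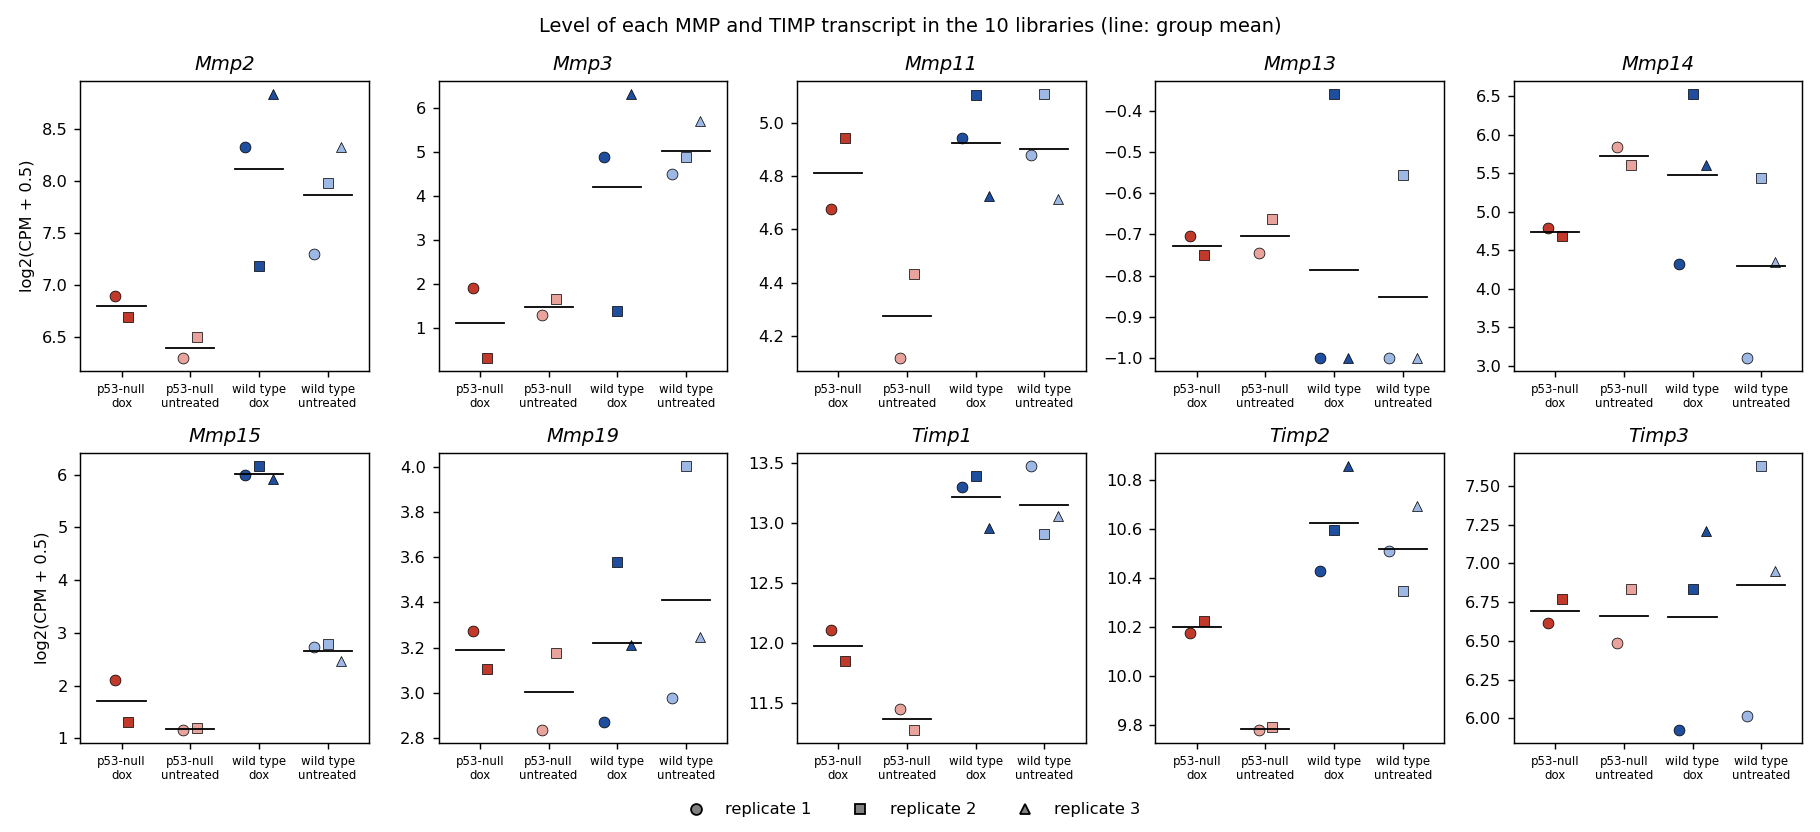
Level of each gene as log2(CPM + 0.5) in the 10 libraries, 1 panel a gene with its own scale. Points are libraries, shapes are replicate numbers and lines are group means. The 3 treated wild-type libraries stand far above all others for Mmp15. Untreated p53-null libraries lie below untreated wild-type libraries for Timp1 and Timp2, where 64.9% of all genes tested did not overlap.

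Doxorubicin raised Mmp15 in wild-type cells. It encodes MT2-MMP, a membrane-type MMP. It stood at 63.2, 71.0 and 59.7 CPM in treated wild-type libraries 1, 2 and 3, against 6.19, 6.38 and 5.05 CPM in untreated wild-type libraries 1, 2 and 3. The lowest treated library was far above the highest untreated one. On the log2(CPM + 0.5) scale the rise was 3.36 (SE 0.27, 95% interval 2.76 to 3.95), a 10.2-fold change, with an adjusted p of 4.73e-05 from limma. It was the 1 member called of 9 tested, where 12.6% of all 11177 genes tested were called in either direction and 8.03% were called higher. Within libraries of the same number, treated wild-type libraries held 10.2, 11.1 and 11.8 times the untreated level.

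In p53-null cells Mmp15 stayed low. It stood at 3.83 and 1.98 CPM in treated p53-null libraries, against 1.73 and 1.80 CPM in untreated p53-null libraries. Treated library 2 was little above the untreated libraries. The fitted change was 0.53 (SE 0.33, 95% interval -0.19 to 1.26), with an adjusted p of 0.569. The response in p53-null cells was smaller than that in wild-type cells, with a difference of -2.82 on the log2 scale (SE 0.42, 95% interval -3.76 to -1.89) and an adjusted p of 0.0088 from limma. Mmp15 was the 1 member called in this test of the difference, where 2.34% of all genes were called and 1.89% were called lower. Leaving out both p53-null libraries numbered 2 gave -2.39 with an adjusted p of 0.189. Leaving out untreated p53-null library 1 or 2 alone gave adjusted p-values of 0.0679 and 0.0614.

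Between genotypes Mmp15 was lower in p53-null cells in both conditions. Treated p53-null cells averaged 2.91 ± 1.31 CPM and treated wild-type cells 64.6 ± 5.81 CPM (SD, n = 2 and 3), a log2 fold of -4.31 (SE 0.30) with an adjusted p of 1.27e-05 from limma. Untreated p53-null cells averaged 1.77 ± 0.0514 CPM and untreated wild-type cells 5.87 ± 0.715 CPM (SD, n = 2 and 3), a log2 fold of -1.49 (SE 0.30) with an adjusted p of 0.00773. No untreated p53-null library reached the lowest untreated wild-type library. The untreated genotypes did not overlap in 64.9% of all genes tested. The untreated call was lost without both p53-null libraries numbered 2 (adjusted p 0.0712), and without untreated p53-null library 1 (0.0669) or 2 (0.0592).

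Mmp14 encodes MT1-MMP, the membrane-type collagenase that activates proMMP2. It stood at 19.5, 91.9 and 48.2 CPM in treated wild-type libraries 1, 2 and 3, against 8.09, 42.9 and 19.9 CPM in untreated wild-type libraries 1, 2 and 3. The groups overlapped, yet in each number the treated library was the higher, by 2.41, 2.14 and 2.42 times. Without pairing, the fitted change was 1.19 (SE 0.61, 95% interval -0.17 to 2.55), with an adjusted p of 0.243. Same-numbered wild-type libraries deviated together over all genes, and with the replicate number as a block the same change had an adjusted p of 0.00227 from limma, where 23.3% of all genes were called. With the block in wild type only, the adjusted p was 0.0018.

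In p53-null cells the fitted change of Mmp14 was a fall that did not pass the test. It stood at 27.1 and 25.4 CPM in treated p53-null libraries, against 57.1 and 48.5 CPM in untreated p53-null libraries. Within a number the ratios were 0.475 and 0.523. The fitted change was -0.99 (SE 0.75, 95% interval -2.65 to 0.67), with an adjusted p of 0.645, or 0.129 with the block. The difference of the responses, p53-null minus wild type, was -2.18 (SE 0.97, 95% interval -4.33 to -0.03), with an adjusted p of 0.233 without the block. With the block its adjusted p was 0.00561, and 0.00387 with the block in wild type only, where 9.63% of all genes were called with the block.

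Mmp14 passed no test between genotypes. Treated p53-null cells averaged 26.2 ± 1.24 CPM and treated wild-type cells 53.2 ± 36.4 CPM (SD, n = 2 and 3), with an adjusted p of 0.51 from limma. Untreated p53-null cells averaged 52.8 ± 6.07 CPM and untreated wild-type cells 23.6 ± 17.7 CPM (SD, n = 2 and 3), with an adjusted p of 0.127. The untreated groups did not overlap, as held for 64.9% of all genes tested in that comparison. The spread of Mmp14 was wider within wild type, where library 2 was highest and library 1 lowest in both conditions.

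**Figure D2:**
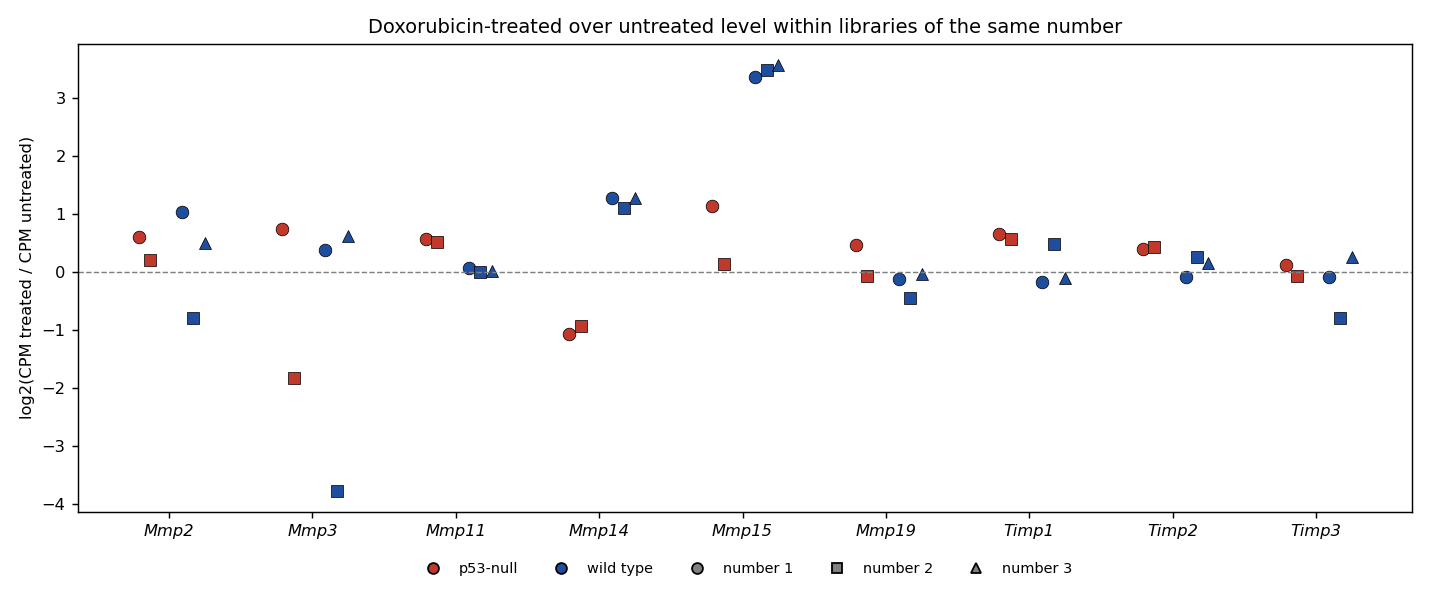
Treated over untreated level, as log2 of the CPM ratio, within libraries of the same number for the 9 tested genes. Colours are genotypes and shapes are numbers. The 3 wild-type ratios of Mmp15 and of Mmp14 lie close together above 0, and the 2 p53-null ratios of Mmp14 lie below 0.

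Mmp2 encodes gelatinase A, the secreted protease that cuts gelatin and type IV collagen. It stood at 119 and 103 CPM in treated p53-null libraries, against 78.2 and 90.0 CPM in untreated p53-null libraries. Its wild-type levels were 320, 145 and 457 CPM in treated libraries 1, 2 and 3, against 157, 252 and 322 CPM in untreated libraries 1, 2 and 3. Untreated p53-null libraries were below all untreated wild-type libraries, and treated wild-type library 2 was the lowest of its group. Between the untreated genotypes 64.9% of all genes tested did not overlap. The untreated genotypes differed by -1.47 on the log2 scale (SE 0.44), 0.360 of the wild-type level, with an adjusted p of 0.0297 from limma. That call was lost without untreated p53-null library 1 (0.155) or 2 (0.127), treated p53-null library 2 (0.0529), both p53-null libraries numbered 2 (0.179), and untreated wild-type library 2 (0.0752) or 3 (0.0951). It was also lost with library size as the only scaling (0.0853), with no filter (0.0555) and with a filter of 5 CPM (0.0545). In the treated cells the difference was -1.32 (SE 0.44), with an adjusted p of 0.0803, which became 0.00911 without treated wild-type library 2. The fitted change of Mmp2 with doxorubicin was 0.40 in p53-null cells (adjusted p 0.787) and 0.24 in wild-type cells (adjusted p 0.731).

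Mmp3 encodes stromelysin 1, which cuts proteoglycans and fibronectin and activates other proMMPs. It stood at 3.30 and 0.755 CPM in treated p53-null libraries, against 1.97 and 2.68 CPM in untreated p53-null libraries. In wild type it stood at 28.9, 2.14 and 78.4 CPM in treated libraries 1, 2 and 3, against 22.1, 29.0 and 51.2 CPM in untreated libraries 1, 2 and 3. Untreated p53-null libraries lay far below untreated wild-type libraries, while treated wild-type library 2 lay within the range of the p53-null libraries. The untreated groups did not overlap in 64.9% of all genes tested. The untreated genotypes differed by -3.54 on the log2 scale (SE 1.13, 95% interval -6.05 to -1.03), with an adjusted p of 0.0371 from limma. That call was lost without untreated p53-null library 1 (0.168) or 2 (0.142), treated p53-null library 2 (0.0528), both p53-null libraries numbered 2 (0.185), and untreated wild-type library 2 (0.0773) or 3 (0.103). It was also lost with library size as the only scaling (0.0507), with no filter (0.0719) and with a filter of 5 CPM (0.0522). In the treated cells the difference was -3.07 (SE 1.13), with an adjusted p of 0.108, and without treated wild-type library 2 it was -4.43 with an adjusted p of 0.00219. The ratio of treated to untreated Mmp3 was 1.67 and 0.282 in p53-null libraries and 1.3, 0.0737 and 1.53 in wild-type libraries, so its direction was not shared within either genotype.

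Macrophage markers varied in the same libraries, and macrophages also make MMPs. Their sum was 47.4, 228 and 243 CPM in treated wild-type libraries 1, 2 and 3, against 102.5, 512 and 540 CPM in untreated wild-type libraries 1, 2 and 3. Treated wild-type library 2, the low library for Mmp2 and Mmp3, was not low in these markers. Wild-type library 1 was the lowest in both conditions for Mmp14, Mmp19 and Timp3, and for Mmp2 and Mmp3 when untreated. It was also the lowest in macrophage markers, and the highest in skeletal muscle and chondrocyte markers. The latter summed to 436, 321 and 224 CPM in treated and 433, 163 and 160 CPM in untreated wild-type libraries 1, 2 and 3. In bulk RNA fewer cells of a type and less RNA per cell cannot be told apart. The part of other cell types in the levels of Mmp2, Mmp3, Mmp14, Mmp19 and Timp3 was not tested.

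Of the other secreted proteases, Mmp11 encodes stromelysin 3, which is activated by furin-like convertases. It stood at 25.1 and 30.3 CPM in treated p53-null libraries, against 16.9 and 21.1 CPM in untreated p53-null libraries. Its levels in wild type were 30.3, 33.8 and 25.9 CPM in treated libraries, against 28.9, 33.9 and 25.7 CPM in untreated libraries. Untreated p53-null libraries were the lowest of the 10, while the untreated genotypes did not overlap in 64.9% of all genes tested. The untreated genotypes differed by -0.62 (SE 0.24), with an adjusted p of 0.0674 from limma. With the replicate block, whose numbers do not pair libraries across genotypes, the adjusted p was 0.0328. It was 0.0392 with median-of-ratios scaling and 0.0467 on the values as deposited. Its fitted change with doxorubicin was 0.53 in p53-null cells (SE 0.26, adjusted p 0.473) and 0.02 in wild-type cells (SE 0.21, adjusted p 0.957).

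Mmp19, a secreted MMP that cuts basement membrane components, passed no test. It stood at 9.17 and 8.12 CPM in treated p53-null libraries, against 6.63 and 8.53 CPM in untreated p53-null libraries. Wild-type libraries held 6.82, 11.4 and 8.75 CPM when treated, against 7.38, 15.5 and 8.99 CPM when untreated. All 4 groups overlapped, and library 2 was the highest wild-type library in both conditions. Mmp13, a collagenase that cuts fibrillar collagen, held 3 and 3 reads in treated p53-null libraries, 2 and 3 in untreated p53-null libraries, 0, 3 and 0 in treated wild-type libraries and 0, 2 and 0 in untreated wild-type libraries. A count of 3 reads corresponds to 0.0944 to 0.357 CPM in these libraries, so Mmp13 was at or under that floor throughout. It did not pass the filter on low values, was not tested and is given no fold.

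Among the inhibitors, Timp1 was the most different between genotypes. It encodes a secreted inhibitor of most soluble MMPs and is X-linked. It stood at 4405 and 3695 CPM in treated p53-null libraries, against 10124, 10775 and 7952 CPM in treated wild-type libraries 1, 2 and 3. In untreated cells it stood at 2798 and 2475 CPM in p53-null libraries, against 11393, 7707 and 8554 CPM in wild-type libraries 1, 2 and 3. Every untreated p53-null library lay below every untreated wild-type library, while 64.9% of all genes tested did not overlap between the untreated genotypes. The treated genotypes differed by -1.24 on the log2 scale (SE 0.23), 0.423 of the wild-type level, with an adjusted p of 0.00666 from limma. The untreated genotypes differed by -1.79 (SE 0.23), 0.289 of the wild-type level, with an adjusted p of 0.0014. Without both p53-null libraries numbered 2 the adjusted p-values were 0.182 in treated and 0.0522 in untreated cells, and without treated p53-null library 2 alone the treated value was 0.0911. It was 0.0502 when only the treated groups were fitted.

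No change of Timp1 with doxorubicin passed the test. The fitted change was 0.62 in p53-null cells (SE 0.25, 95% interval 0.05 to 1.18, adjusted p 0.415) and 0.07 in wild-type cells (SE 0.21, 95% interval -0.39 to 0.53, adjusted p 0.862). Within a number, the treated level was 1.57 and 1.49 times the untreated one in p53-null libraries, and 0.889, 1.40 and 0.930 times in wild-type libraries. Both p53-null ratios were above 1 and the wild-type ratios lay on both sides of 1. The difference of the responses was 0.55 (SE 0.33), with an adjusted p of 0.355 from limma.

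Timp2 encodes the inhibitor that also takes part in proMMP2 activation. It stood at 1158 and 1197 CPM in treated p53-null libraries, against 879 and 886 CPM in untreated p53-null libraries. In wild type it stood at 1377, 1546 and 1854 CPM in treated libraries, against 1459, 1304 and 1655 CPM in untreated libraries. Untreated p53-null libraries were below all untreated wild-type ones, and the libraries of a p53-null group lay close together. For 64.9% of all genes tested the untreated genotypes did not overlap. The untreated genotypes differed by -0.73 (SE 0.19), 0.602 of the wild-type level, with an adjusted p of 0.0185 from limma. With library size as the only scaling that difference was -0.34 with an adjusted p of 0.18, and with upper quartile scaling it was -0.55 with an adjusted p of 0.0753. The call was also lost without untreated p53-null library 1 (0.114) or 2 (0.109), both p53-null libraries numbered 2 (0.148) and untreated wild-type library 3 (0.0745). In treated cells the genotypes differed by -0.42 (SE 0.19), with an adjusted p of 0.179.

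Timp3, the inhibitor that binds to the matrix and also blocks ADAM proteases, passed no test. It stood at 97.6 and 109 CPM in treated p53-null libraries, against 89.2 and 114 CPM in untreated p53-null libraries. In wild type it stood at 60.2, 114 and 148 CPM in treated libraries, against 64.1, 197 and 123 CPM in untreated libraries. The p53-null libraries lay inside the wild-type range, and wild-type library 1 was the lowest in both conditions. Timp1 and Timp3 lie inside Syn1 and Syn3, genes of the opposite strand, and the strand of the reads is not given, so reads of these partners cannot be told apart.

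**Figure D3:**
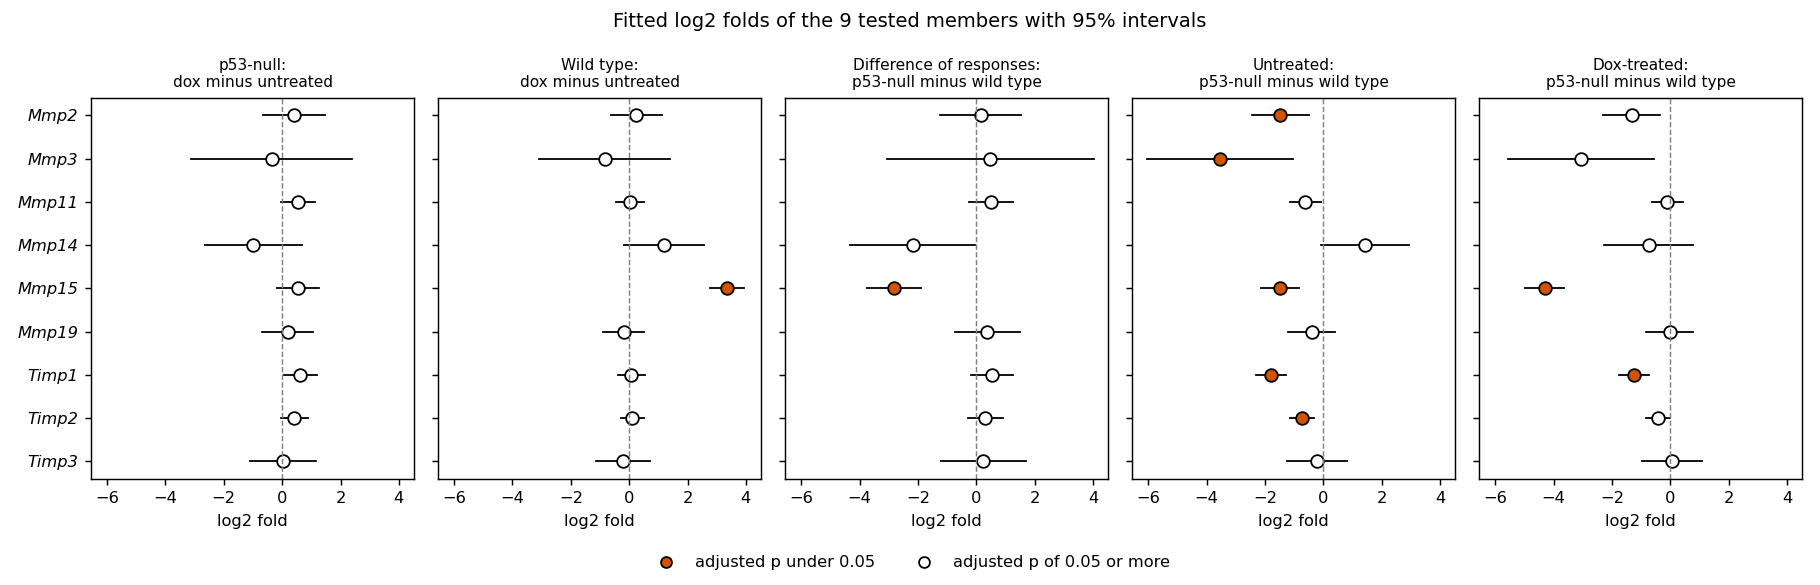
Fitted log2 folds of the 9 tested genes with 95% intervals in the 5 comparisons, filled where the adjusted p from limma was under 0.05. Mmp15 is filled in every panel but that of doxorubicin in p53-null cells, and 5 genes are filled to the left of 0 between untreated genotypes.

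Over the set, 2 of the 9 tested members were lower in treated p53-null than in treated wild-type cells, Mmp15 and Timp1, and none was higher. In that comparison 12.1% of all genes were called and 6.82% were lower. In untreated cells 5 of 9 members were lower in p53-null than in wild-type cells, Mmp2, Mmp3, Mmp15, Timp1 and Timp2, and none was higher, where 33.2% of all genes were called and 12.7% were lower. The median log2 fold of the members was -0.75 in treated cells, against 0.03 over all genes, and -0.73 in untreated cells, against 0.09 over all genes. The count of 5 was 2 with library size as the only scaling, which moved the median of all genes to 0.43, and 0 without both p53-null libraries numbered 2.

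Doxorubicin called no member in p53-null cells, where 0% of all genes were called by limma and the smallest adjusted p of any gene was 0.354. With no adjustment, 1254 genes had a p under 0.05 in that comparison. The median log2 fold of the members was 0.40 in p53-null cells, against -0.07 over all genes, and 0.07 in wild-type cells, against 0.05 over all genes. Between the responses, p53-null minus wild type, the median of the members was 0.31, against -0.13 over all genes.

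The genes whose levels followed the called members most closely over the 10 libraries are given as a description. For Mmp15 these were Slc2a8 (Pearson r 0.996), Mapre3 (0.995) and Trp53i11 (0.994), among 5558 genes of sufficient level. For Timp1 they were Ssr4 (0.996), 1110020P15Rik (0.993) and Rpl13a (0.989), and for Timp2 Stra13 (0.966), Ccdc12 (0.959) and Macrod1 (0.956). For Mmp3 they were Ptp4a2 (0.99), 6330578E17Rik (0.989) and N4bp1 (0.989), and for Mmp2 Pskh1 (0.98), Lgals9 (0.974) and Mak16 (0.973). The 10 points fall into groups of genotype and treatment, and depth differed with genotype, so these correlations carry no test.

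Of the remaining MMP and TIMP genes, 5 of 17 listed reached the filter (Mmp9, Mmp16, Mmp17, Mmp23 and Mmp28). Their median log2 fold was -0.59 between untreated and -0.85 between treated genotypes, against -0.73 and -0.75 for the members. Lower medians in p53-null cells were thus not particular to the members. In untreated cells Mmp16 went the other way (1.09, adjusted p 0.0722 from limma). Mmp9 (-0.595, 0.279), Mmp23 (-0.63, 0.167) and Mmp28 (-0.30, 0.523) were lower there but not called. In treated cells Mmp17 (-1.52, adjusted p 0.0624 from limma), Mmp9 (-1.30, 0.0683), Mmp23 (-0.85, 0.129) and Mmp28 (-0.77, 0.178) were lower. Mmp16 (0.76, 0.279) was higher, and none of these was called. Mmp17, a membrane MMP held by a lipid anchor, was lower in untreated p53-null cells, at 6.87 and 8.39 CPM, than in untreated wild-type cells, at 22.2, 45.5 and 46.2 CPM. The groups did not overlap, as held for 64.9% of all genes tested in that comparison. The log2 fold was -2.17 (SE 0.47) with an adjusted p of 0.00961 from limma, where 33.2% of all genes were called. No other call was made on this list in any comparison, and the Mmp17 call was lost without either untreated p53-null library (adjusted p 0.0792 and 0.0639) and without both libraries numbered 2 (0.0955).

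Related ADAM and ADAMTS proteases were tested for 25 of 35 listed genes. In wild-type cells doxorubicin raised 2 and lowered 1, where 12.6% of all genes were called. Adamts7, a protease of cartilage matrix proteins, averaged 42.5 ± 6.90 CPM in treated and 15.6 ± 0.531 CPM in untreated wild-type cells (SD, n = 3 each), a log2 fold of 1.41 with an adjusted p of 0.00179 from limma. Adamtsl4 rose by 1.28 (adjusted p 0.00978), and Adamts1 fell by 1.35 (adjusted p 0.0361), a call lost in 12 alternatives. With the replicate block, which called 23.3% of all genes in wild type and 9.63% for the difference of responses, 3 were lowered, and 4 responses were lower in p53-null than in wild-type cells, against none without it. Between untreated genotypes 6 were higher and 3 lower in p53-null cells, where 33.2% of all genes were called. The list median was 0.21 against 0.09 over all genes. The calls were led by Adam22, a family member without protease activity. Adam22 averaged 115 ± 20.4 CPM in untreated p53-null cells and 2.98 ± 1.06 CPM in untreated wild-type cells (SD, n = 2 and 3), a log2 fold of 5.09 with an adjusted p of 1.87e-05. In treated cells 2 were higher and 2 lower in p53-null cells, where 12.1% of all genes were called. These included Adam22 at 4.59 (adjusted p 2.48e-05) and Adamts7 at -1.48 (adjusted p 0.00205). Without both p53-null libraries numbered 2 the call of Adamts7 was lost (adjusted p 0.0598).

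Plasminogen activation supplies plasmin, which cleaves several proMMPs, and 8 of 12 listed genes were tested. In wild-type cells doxorubicin raised 2 and lowered 1, and it called 12.6% of all genes. Plau, which encodes urokinase, stood at 6.44, 9.21 and 5.04 CPM in treated wild-type libraries, against 2.14, 2.69 and 2.70 CPM in untreated ones. The log2 fold was 1.26 (SE 0.27) with an adjusted p of 0.0147 from limma. Serpine2, an inhibitor of urokinase and thrombin, rose by 2.87 (adjusted p 0.0122), with treated wild-type library 3 at 450.2 CPM against 79.5 and 77.9 CPM in the other two treated libraries. With the replicate block 2 were lowered (23.3% of all genes called), and 1 response was higher and 1 lower in p53-null cells (9.63% of all genes called), against none without it. Between untreated genotypes 2 were higher and 2 lower in p53-null cells, with a list median of 0.18. Among them were Plau at 2.11 (adjusted p 0.00237) and Anxa2, a plasminogen receptor subunit, at -1.48 (adjusted p 0.00701). Of all genes, 33.2% were called between untreated genotypes and 12.1% between treated genotypes. In treated cells Serpine2 was the 1 gene called, at -3.27 (adjusted p 0.0106), a call lost without treated p53-null library 1 (0.0883) or 2 (0.0635). Without both p53-null libraries numbered 2 these calls of Plau (adjusted p 0.0582 and 0.0509), Serpine2 (0.0516 and 0.127) and Anxa2 (0.0738) were lost, and that of Anxa2 also without untreated p53-null library 1 (0.076).

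Activators and inhibitors outside the TIMP family were tested for 12 of 16 listed genes. In wild-type cells doxorubicin raised none and lowered 1, where 12.6% of all genes were called. This was Itgb3, an integrin subunit that binds matrix, with a log2 fold of -1.48 (adjusted p 0.013 from limma). With the replicate block 2 were raised (23.3% of all genes called) and 1 response was lower in p53-null cells (9.63% of all genes called), against none without it. Between untreated genotypes 2 were higher and 1 lower in p53-null cells, with Pcsk6, a furin-like convertase, at 1.65 (adjusted p 0.019) and Itgb3 at -1.58 (adjusted p 0.0101). The list median was 0.01 there and -0.52 in treated cells, against 0.09 and 0.03 over all genes. Of all genes, 33.2% were called between untreated genotypes and 12.1% between treated genotypes. In treated cells Bmp1, a procollagen protease, was the 1 gene called, at -1.43 (adjusted p 0.0175), a call lost without treated p53-null library 2 (0.197), without both libraries numbered 2 (0.253) and when only the treated groups were fitted (0.0684). The call of Itgb3 in wild-type cells was lost without untreated wild-type library 2 (0.0562) or 3 (0.0581), its call between genotypes without untreated p53-null library 1 (0.106) or both libraries numbered 2 (0.0743), and that of Pcsk6 in 5 alternatives.

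Matrix proteins that MMPs cut were tested for 19 of 20 listed genes. Fn1, which encodes fibronectin, stood at 267 and 462 CPM in treated p53-null libraries, against 713 and 680 CPM in untreated p53-null libraries. In wild type it stood at 363, 444 and 295 CPM in treated libraries, against 242, 171 and 146 CPM in untreated libraries. On average Fn1 was lower with treatment in p53-null cells and higher with treatment in wild-type cells. The responses, p53-null minus wild type, differed by -1.97 for Fn1 (SE 0.42, adjusted p 0.0425 from limma) and by -1.62 for Tnc, which encodes tenascin C (SE 0.35, adjusted p 0.047). These were the 2 calls of the list in that test, where 2.34% of all genes were called, and they were lost in 11 and 15 alternatives. With the replicate block, which called 9.63% of all genes, 5 were called lower. In wild-type cells doxorubicin raised 1, Fn1, by 0.99 (adjusted p 0.0362), a call lost in 10 alternatives, where 12.6% of all genes were called. With the block it raised 5, where 23.3% of all genes were called. The median log2 fold of the list between the responses was -0.85, against -0.13 over all genes. In untreated cells 8 were higher and 1 lower in p53-null cells, where 33.2% of all genes were called and 12.7% were lower. In treated cells none was higher and 3 were lower, where 12.1% of all genes were called and 6.82% were lower.

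Upstream regulators known to act on MMP genes, mostly AP-1 and ETS factors and cytokines, were tested for 18 of 22 listed genes. In wild-type cells doxorubicin raised 3 and lowered 1, where 12.6% of all genes were called. Fosl1, which encodes the AP-1 subunit FRA1, stood at 176, 265 and 203 CPM in treated wild-type libraries, against 85.2, 108 and 99.4 CPM in untreated ones. The log2 fold was 1.12 (SE 0.20) with an adjusted p of 0.0055 from limma. Lif, a cytokine of the interleukin 6 family, rose by 1.88 (adjusted p 0.00661), and Tgfb3 fell by 0.86 (adjusted p 0.00845). With the replicate block 5 were raised, where it called 23.3% of all genes, and 4 responses were lower in p53-null cells, where it called 9.63%, against none without it. In treated cells 1 was higher and 2 were lower in p53-null cells, where 12.1% of all genes were called. Fosl1 was at -1.77 (adjusted p 0.000556) and Runx2 at 1.20 (adjusted p 0.0347), the second lost in 10 alternatives. In untreated cells 6 were higher and 3 lower in p53-null cells, where 33.2% of all genes were called. Among them were Ets1 at 2.41 (adjusted p 0.00367) and Tgfb2 at 2.02 (adjusted p 0.00623). Without both p53-null libraries numbered 2 their adjusted p-values were 0.0645 and 0.0785. With library size as the only scaling those counts were 9 and 0. The median log2 fold of these regulators in untreated cells was 0.58, against 0.09 over all genes. No gene of any list was called for doxorubicin in p53-null cells.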

How the data were processed

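Per the labels' protocols, libraries were made by 3′ sequencing of poly(A) RNA. DESeq (no version) and mm9 are named in the submitters' processing notes. Aligner, annotation and strand: not given in the sources used here. The deposited values are 1 per gene and library on a scale close to log2, from -0.0425 to 24.43, and behave like variance-stabilised reads.

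Every library followed 1 common curve once its reads were divided by its own factor. Steps along it from a starting run of 250 reads recovered whole reads for 99.83% of 22112 distinct higher values, within 0.01 of a whole read. The other 37 stood at 103639 reads or more, at most 0.463 away. Recovered reads are computed and not a deposited count table, so no count model was used.

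Scaling used trimmed means of M values in R 4.3.3, trimming 30% of M and 5% of A. The test covered the 11177 genes that reached 1 CPM in 2 libraries or more. log2(CPM + 0.5) was fitted with limma 3.58.1 and its trend option, with 1 mean per group over all 10 libraries. Folds on this scale understate changes of low genes. Tests are two-sided, adjusted by the Benjamini-Hochberg method over all genes tested, with a threshold of 0.05. Intervals are 95%. Reads carry no molecular identifiers and so do not count independent molecules, and the 3-read floor covers counting error only.

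The comparisons were doxorubicin in each genotype, the difference of these responses, and the genotypes in each condition. The members and lists were chosen with earlier results of these data known. The text names all 10 members, up to 3 called genes of each list by p in each comparison, Trp53 and Cdkn1a, and for each called member the 3 most similar genes with an average log2 CPM of 3 or more. Of the genes that meet this rule, 1 is left out and not reported here. Motif shares were counted over RefSeq promoters.

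Pairing by replicate number was checked by correlating deviations from group means over all genes tested. In wild type, same-numbered libraries gave 0.581, 0.342 and 0.611, and all other pairs were negative. Centring on group means makes unlike-numbered pairs negative when same-numbered ones are positive, so those signs add no support for pairing. The main fit took no pairs in either genotype, and the replicate number entered only as a block in alternative fits. p53-null numbers give only 2 pairs. They were part of the replicate block and were left out of the block in wild type only. Alternatives changed the scaling, the added CPM, the filter, the fit and the libraries.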

Additional observations from a re-analysis of the deposited data

Results flagged for a closer look

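These results are listed because doxorubicin responses differed between the genotypes by the limma test of the difference itself, p53-null minus wild type on the log2 scale. Among the members this was Mmp15 at -2.82 (adjusted p 0.0088). Among the matrix substrates it was Fn1 at -1.97 (adjusted p 0.0425) and Tnc at -1.62 (adjusted p 0.047). The p53 targets Cdkn1a at -2.05 (adjusted p 0.00707), Mdm2 at -2.67 (adjusted p 0.00896) and Ccng1 at -3.30 (adjusted p 0.00496) also differed. Without both p53-null libraries numbered 2 the adjusted p-values of Cdkn1a, Mdm2 and Ccng1 were 0.189, 0.238 and 0.189, and without untreated p53-null library 1 they were 0.0613, 0.0735 and 0.0504. The call of Mdm2 was also lost without untreated p53-null library 2 (0.0614) and without treated p53-null library 2 (0.0576). Mmp15, Fn1 and Tnc were likewise not called without both libraries numbered 2 (adjusted p 0.189, 0.217 and 0.252). Leaving out a p53-null library lowered the number of all genes called in this test, so these lost calls are not particular to the 6 genes. In each of these 6 genes the response was lower in p53-null cells. No group held the 4 samples needed to look for a single library far from the others.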

How the results depend on the processing

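Of 999 member values under alternatives, 911 kept their call and sign, 34 lost a call, 9 gained one and 45 changed sign with neither value called. No called value turned, and among other named genes 1220 of 1438 kept their call. Mmp15 kept its wild-type rise in 23 of 23 alternatives (3.08 to 3.90) and its difference of responses in 19 of 22. With the replicate block, the members called were 2 for doxorubicin in wild type and 2 for the difference of responses, in place of 1 each, by adding Mmp14, and the block in wild type only, added after seeing the data, also gave 2 and 2. The pairing changed 1 other member call, that of Mmp11 between untreated genotypes. Without both p53-null libraries numbered 2, also added after seeing the data, the members called were 0 for the difference of responses, 0 between untreated genotypes and 1 between treated genotypes. Leaving out 1 library at a time gave 0 to 1 members called for the difference of responses (0 without untreated p53-null library 1 or 2), 1 to 5 between untreated genotypes (1 without either of the same libraries) and 1 to 4 between treated genotypes. Between untreated genotypes the 5 members called became 2 with library size alone, 3 with no filter and 3 at a filter of 5 CPM. Between treated genotypes the 2 became 1 when only the groups compared were fitted. The causes were not tested. Every fit that left out a p53-null library kept 1 library in a p53-null group. Fewer of all genes were then called between genotypes and for the difference of responses, so calls lost there are not particular to the members. With library size alone the share of higher calls over all genes moved to 86.6% between untreated genotypes, against 61.6% with the scaling used, and was 73.5% with upper quartile scaling. It moved to 68.6% between treated genotypes, against 43.5%, and to 8.97% for the difference of responses, against 19.2%, or 4.73% with upper quartile scaling. Depth limited Mmp13, at 3 reads or fewer in every library.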
